A study of Mus musculus with 12 samples.

Results

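Sall1, Sall3, Mef2a, Mef2c, Maf, Spi1, Cebpa, Cebpb and Cebpd are 9 genes for transcription factors that act in microglia and in the myeloid lineage they come from. They were taken by symbol from a count table of 36491 genes, and all 9 were measured and passed the filter on low counts. Expression was measured by RNA-seq in cells isolated with CD11b magnetic beads from brains of male wild type C57BL/6J mice, 6 months old, after a bone marrow transplant (BMT) done with a head shield (shielded) or without one (unshielded). Sample titles mark the shielded groups hc and the unshielded groups wbi, read here as head covered and whole-body irradiation. On that reading, groups compared by shield differ in irradiation of the head. All groups then were fed PLX5622, a drug that blocks the CSF1 receptor and kills most microglia, for 2 weeks and then normal chow for 6 weeks, so the shielded mice without LPS are not untreated controls. The LPS groups were given 50 µg of lipopolysaccharide, a bacterial outer membrane lipid sensed by TLR4, into the peritoneum and the others saline, and cells were sorted 6 hours later. Each of the 4 groups (shielded or unshielded, with or without LPS) had 3 libraries. CD11b is carried by microglia, by other brain macrophages and by blood myeloid cells, and the labels describe no step that separated donor from host cells.

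PU.1, the product of Spi1, opens chromatin at macrophage genes and is needed to make all macrophages. The C/EBP factors bind beside it; C/EBPα acts in myeloid development, whereas C/EBPβ and C/EBPδ are known as factors that inflammatory signals induce. Sall1, a zinc finger factor of the spalt family, is made by microglia and hardly by other macrophages, and it holds the microglial programme in place, while Mef2a, Mef2c and Maf bind at many microglial and macrophage enhancers.

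Libraries were grouped by their titles. For shielded libraries 2 and 3 titled as without LPS, the treatment field says LPS. The LPS-responsive gene Cd14, which is not among the 9, stood at 366 CPM (each library's counts relative to its TMM-scaled total) in shielded library 1 without LPS, 361 in library 2 and 354 in library 3, against 1734 to 2529 in the shielded LPS libraries, so both libraries sat with the library whose labels do not conflict. Grouping both by the field instead left none of the 9 genes past the threshold for LPS in either kind of mice or by shield without LPS, and 2 (Sall1 and Sall3) by shield after LPS. Library totals ran from 18090977 to 60495968 counts, and each of the 9 genes had at least 607 counts in every library. Markers fixed for the sorted type were present throughout: 8 microglial genes summed to 14344 to 16816 CPM in shielded libraries without LPS, 9728 to 10413 after LPS, 7403 to 9298 in unshielded libraries without LPS and 6627 to 7240 after LPS. This list holds Sall1. The 6 genes of B and T cells summed to at most 1.25 CPM, with Ms4a1, Cd3e, Cd3d and Cd8a at 0 in some libraries. In bulk RNA a lower level can come from fewer cells of a type or from less RNA per cell, and these cannot be told apart. Nothing in the labels ties each library to an animal of its own; the p-values therefore measure only the spread between these samples.

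Promoter sequence from RefSeq (GRCm38.p6, 5′ to 3′ on the gene's strand) is shown for 4 genes whose windows held a motif searched for: Cebpb and Cebpa, which moved apart after LPS, Sall1, which separated the groups by shield and LPS, and Mef2a for the MEF2 site at its own start. RefSeq windows were matched by symbol for Sall1, Mef2a, Mef2c, Cebpa and Cebpb (9 windows), and not for Sall3, Maf, Spi1 and Cebpd. Positions count from the annotated start, the base before it being -1. Capitals mark the motif in each line.
Cebpb, chr2:167688665-167688914 (+), bases -250 to -1: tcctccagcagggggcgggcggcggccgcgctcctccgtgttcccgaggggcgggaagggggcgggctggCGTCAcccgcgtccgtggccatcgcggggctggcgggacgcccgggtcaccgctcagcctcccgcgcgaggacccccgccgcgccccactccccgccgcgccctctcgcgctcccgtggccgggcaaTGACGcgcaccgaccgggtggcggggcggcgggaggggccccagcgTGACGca
Cebpa, chr7:35119043-35119292 (+), bases -250 to -1: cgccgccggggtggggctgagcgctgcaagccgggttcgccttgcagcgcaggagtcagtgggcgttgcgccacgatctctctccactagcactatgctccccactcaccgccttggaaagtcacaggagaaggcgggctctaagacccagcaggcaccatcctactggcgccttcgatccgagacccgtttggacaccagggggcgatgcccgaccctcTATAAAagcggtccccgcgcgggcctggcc
Sall1, chr8:89043513-89043762 (-), bases -250 to -1: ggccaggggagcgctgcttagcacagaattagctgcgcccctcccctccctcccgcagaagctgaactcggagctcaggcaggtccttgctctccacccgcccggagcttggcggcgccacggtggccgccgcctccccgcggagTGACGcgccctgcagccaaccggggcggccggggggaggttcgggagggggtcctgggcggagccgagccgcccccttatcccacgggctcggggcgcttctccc
Mef2a, chr7:67372851-67372958 (-), bases -100 to 8: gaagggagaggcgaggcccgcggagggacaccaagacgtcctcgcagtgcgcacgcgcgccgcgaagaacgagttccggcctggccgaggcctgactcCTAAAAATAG
The Cebpb line carries the core of the cyclic AMP response element, TGACG, at -53 to -49 and at -7 to -3, and its reverse complement CGTCA at -180 to -176, and the Sall1 line, 1 of 3 Sall1 windows, carries TGACG once at -105 to -101. Bases just after the start of that Sall1 window were in no GENCODE transcript of the gene, while those of another window, which held no motif, were in 1. Cebpa carries no such core and has a TATA box, TATAAA, at -30 to -25. The Mef2a line ends in a MEF2 site (the family's own consensus, read as CTAAAAATAG) at -2 to 8. Searched on both strands in the 250 bases before the start of 32851 RefSeq windows, TGACG was in 17.8%, TATAAA in 12.4% and the MEF2 site in 1.46%. In the whole windows, which run on past the start, the shares were 20.8%, 13.6% and 1.68%. TATAAA also lies at 22 to 27 after the Cebpb start and, reversed, in 2 of 3 Mef2c windows. The C/EBP palindrome TTGCNNAA, the PU.1 core GAGGAAGT and the κB site GGGANTTCC, which are in 10.8%, 3.20% and 1.68% of whole windows, were not found as these letters in the windows of the 5 genes. A match describes letters only.

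Sall1 separated the groups by shield and by LPS. It stood at 470.4, 700.0 and 499.5 CPM (libraries 1 to 3) in shielded mice without LPS and at 237, 214 and 161 CPM after LPS. In unshielded mice it stood at 65.9, 196 and 93.7 CPM without LPS and at 51.8, 32.0 and 24.7 CPM after LPS. Each of the 4 comparisons of groups left no overlap, and the lowest LPS library of shielded mice lay below the highest library of unshielded mice without LPS. Group means were 557 ± 125, 204 ± 38.8, 119 ± 68.7 and 36.1 ± 14.0 CPM in that order (SD, n = 3 each).

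Sall1 fell after LPS in shielded mice by 1.45 ± 0.39 on the log2 scale (SE; edgeR adjusted p = 0.00684), which is 2.73-fold, and in unshielded mice by 1.71 ± 0.39 (adjusted p = 0.00481). It was 4.70-fold lower in unshielded than in shielded mice without LPS (log2 fold change -2.23 ± 0.40, edgeR adjusted p = 0.00402) and 5.64-fold lower after LPS (-2.50 ± 0.40, adjusted p = 0.000534). Unshielded library 2 without LPS held the highest Sall1 of its group, and without it the log2 difference by shield without LPS was -2.81 and the LPS effect in unshielded mice -1.17 (edgeR adjusted p = 0.0138). The LPS call in shielded mice was lost without the libraries with conflicting labels (-1.20, edgeR adjusted p = 0.103) and with the mean neuron and oligodendrocyte marker level as a covariate (-1.83, adjusted p = 0.0899).

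Sall3, the other spalt family gene of the set, followed the shield and not LPS. Its CPM was 87.6, 126 and 102 in shielded mice without LPS and 124, 124 and 103 after LPS, and these groups overlapped. In unshielded mice it was 13.8, 35.2 and 21.0 CPM without LPS and 28.6, 18.1 and 11.4 CPM after LPS, which also overlapped and lay below every shielded library. Without LPS it was 4.57-fold lower in unshielded mice (log2 fold change -2.19 ± 0.36, edgeR adjusted p = 0.00275), and after LPS 6.04-fold lower (-2.60 ± 0.36, adjusted p = 0.000217). The log2 LPS effect was 0.15 ± 0.34 in shielded mice (edgeR adjusted p = 0.702; 0.15 plus or minus 2 SE runs from -0.53 to 0.84) and -0.25 ± 0.35 in unshielded mice (adjusted p = 0.580; -0.96 to 0.46). The sign in shielded mice turned with library totals in place of TMM scaling (-0.20). Without the libraries with conflicting labels the calls by shield without LPS were lost for Sall1 (-2.0, edgeR adjusted p = 0.120) and Sall3 (-1.93, adjusted p = 0.107), where shielded mice have 1 library left.

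Because library scaling cancels in a ratio of 2 genes of the same library, 6 ratios of read counts were taken. They were chosen after their values were seen and are described with no test. The Sall1 to Sall3 ratio was 5.37, 5.55 and 4.87 in shielded and 4.77, 5.58 and 4.46 in unshielded libraries without LPS, and after LPS it was 1.91, 1.72 and 1.57 in shielded and 1.81, 1.77 and 2.17 in unshielded libraries. The ratio was thus 3.04-fold lower after LPS in shielded and 2.58-fold lower in unshielded mice with no overlap, while shielded and unshielded ranges overlapped at either condition. Unshielded libraries 1 and 2 without LPS, whose Sall1 differed by the largest factor within a group (65.9 and 196 CPM), had ratios of 4.77 and 5.58. Leaving out single libraries or both with conflicting labels moved the log2 difference after LPS in shielded mice only between -1.68 and -1.54, and grouping these 2 by the treatment field gave -1.0.

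**Figure D1:**
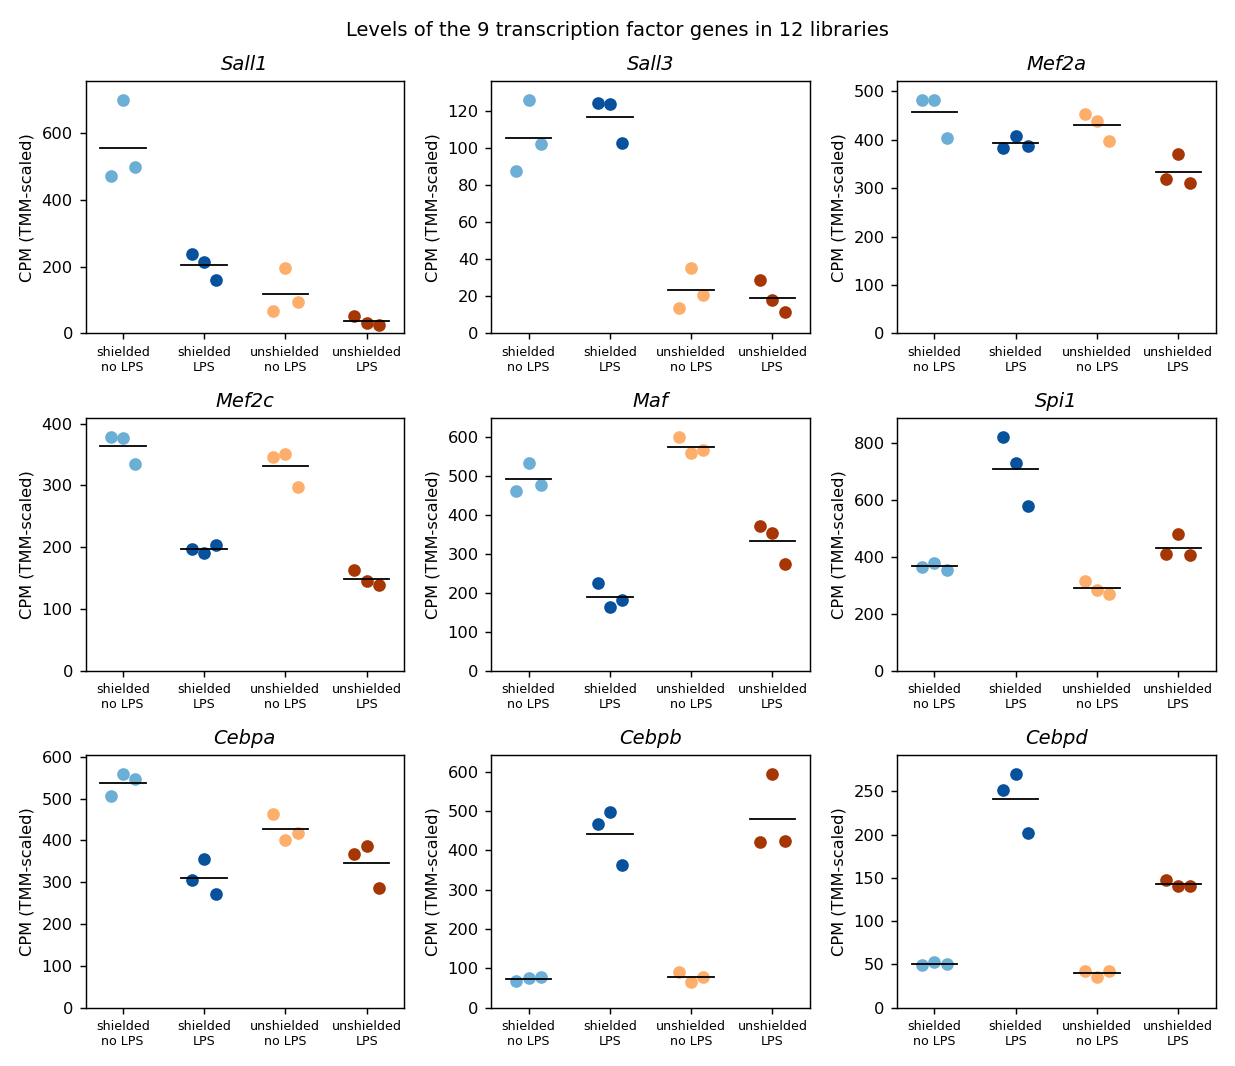
Level of each of the 9 genes in every library (vertical axis, CPM with TMM scaling, from 0) in the 4 groups (horizontal axis); points are libraries and the line is the group mean of 3. Sall1 runs from 700.0 CPM in a shielded library without LPS to 24.7 CPM in an unshielded LPS library, whereas Sall3 is at 87.6 to 126 CPM in shielded and 11.4 to 35.2 CPM in unshielded libraries.

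Other microglial genes were read beside Sall1. The mean log2 CPM of 22 microglia identity genes, none of them among the 9, was 10.58, 10.80 and 10.54 in shielded libraries without LPS and 9.37, 9.81 and 9.27 in unshielded libraries without LPS. In both groups library 2 was the highest in this mean and in Sall1, while library 1 was above library 3 in the mean and below it in Sall1. The mean was 9.96, 10.01 and 9.91 in shielded LPS libraries, where Sall1 was highest in library 1, and 9.14, 8.84 and 8.77 in unshielded LPS libraries, in the same order as Sall1. Of these 22 genes 14 fell and 1 rose after LPS in shielded mice, where 35.1% of all genes fell and 32.4% rose. In unshielded mice 11 fell and 1 rose after LPS, against 18.8% and 24.3% of all genes. By shield 18 of the 22 were lower in unshielded mice without LPS (6.85% of all genes were; median log2 fold change -1.06 against -0.003) and 17 after LPS (25.6% of all genes; -0.93 against 0.07), none higher. The list was drawn up with earlier results of these data known, so it is not independent evidence. Cst3, a protease inhibitor, was at 7519 ± 1418 against 19959 ± 1640 CPM (SD, n = 3 each) without LPS, a log2 fold change of -1.41 ± 0.14 (edgeR adjusted p = 0.000191), and Olfml3 was at -1.26 ± 0.13.

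Border-associated macrophages, the macrophages of the meninges and perivascular spaces, were watched with 8 marker genes. Their summed level was 388 to 477 CPM in shielded and 1001 to 1163 CPM in unshielded libraries without LPS, and 382 to 530.4 against 2421 to 3073 CPM after LPS. Of these 8 genes 4 were higher in unshielded mice without LPS (3.98% of all genes) and 6 after LPS (19.1%), among them the mannose receptor Mrc1 (log2 fold changes 1.57 ± 0.17 and 3.48 ± 0.19). None of the 8 was at 0 in any library, and 1 of them, F13a1, is also on the monocyte list. Summed monocyte markers were 134.5 to 163 and 156 to 183 CPM in shielded and unshielded libraries without LPS, and 205 to 329.5 and 367 to 504 CPM after LPS. The part these markers have in the lower Sall1 and Sall3 was not tested.

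Mef2c, which encodes a MADS-box factor known to restrain microglial activation, fell after LPS in both kinds of mice. Its CPM was 379, 376 and 335 in shielded libraries without LPS and 197, 190.1 and 203 after LPS. In unshielded mice it was 347, 352 and 298 CPM without LPS and 162, 145 and 139 CPM after LPS. The LPS groups lay below the groups without LPS with no overlap, and the shielded and unshielded groups overlapped without LPS but not after it. The log2 fold change after LPS was -0.88 ± 0.10 in shielded mice (edgeR adjusted p = 5.83e-06) and -1.16 ± 0.10 in unshielded mice (adjusted p = 1.9e-06). By shield it was -0.13 ± 0.10 without LPS (edgeR adjusted p = 0.516; -0.32 to 0.06 within 2 SE) and -0.40 ± 0.10 after LPS (adjusted p = 0.00457).

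Mef2a, its relative, passed in 1 of the 4 comparisons. It stood at 483, 483 and 405 CPM in shielded libraries without LPS and at 384, 407 and 388 CPM after LPS, which overlapped. In unshielded mice it stood at 453, 438 and 398 CPM and after LPS at 320.2, 370.3 and 311 CPM, without overlap. It fell after LPS in unshielded mice by 0.37 ± 0.10 on the log2 scale (edgeR adjusted p = 0.0118), a call lost without unshielded LPS library 3 (-0.31, adjusted p = 0.0513) and without the filter on low counts (-0.32, adjusted p = 0.0621). In shielded mice the value was -0.22 ± 0.10 (edgeR adjusted p = 0.0754), which passed with library totals (-0.56, adjusted p = 4.51e-05) with shielded no-LPS library 3 left out (-0.28, adjusted p = 0.0452) and with the replicate block in all 12 libraries (-0.21, adjusted p = 0.0355). By shield Mef2a was at -0.09 ± 0.10 without LPS (edgeR adjusted p = 0.726) and -0.24 ± 0.10 after LPS (adjusted p = 0.0760). The latter passed without any one of shielded LPS library 3, shielded no-LPS library 3, unshielded LPS library 2 and unshielded no-LPS library 3, and with the replicate block in all 12 libraries (edgeR adjusted p = 0.0305 to 0.0494). Within libraries the Mef2c to Mef2a ratio was 0.779 to 0.828 and 0.748 to 0.802 without LPS, and 0.467 to 0.523 and 0.390 to 0.507 after LPS, in shielded and unshielded mice respectively. It was 1.59-fold and 1.73-fold lower after LPS.

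Maf, the gene of a basic leucine zipper factor that limits macrophage self-renewal and supports interleukin-10 production, fell after LPS and ended higher in unshielded mice. In shielded mice it stood at 463, 534 and 477 CPM without LPS and at 226, 164 and 181 CPM after LPS. In unshielded mice it stood at 601, 559 and 567 CPM without LPS and at 371, 352 and 275 CPM after LPS. Every unshielded library lay above every shielded library of the same condition, and every LPS library below those without LPS. The log2 fold change after LPS was -1.37 ± 0.14 in shielded mice (edgeR adjusted p = 2.94e-06) and -0.79 ± 0.14 in unshielded mice (adjusted p = 0.000506). By shield it was 0.23 ± 0.13 without LPS (edgeR adjusted p = 0.378; -0.04 to 0.50 within 2 SE) and 0.81 ± 0.14 after LPS (adjusted p = 0.000454), that is 1.75-fold higher in unshielded mice.

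Spi1, the gene of PU.1, rose after LPS in both kinds of mice. It went from 365, 378 and 355 CPM to 821, 729.7 and 578 CPM in shielded libraries, and from 315, 282 and 271 CPM to 411, 479 and 406 CPM in unshielded libraries. Unshielded libraries lay below shielded ones of the same condition without overlap. The log2 fold change after LPS was 0.95 ± 0.13 in shielded mice (edgeR adjusted p = 3e-05) and 0.58 ± 0.13 in unshielded mice (adjusted p = 0.00254). With library totals these were 0.60 and 0.28, and with the neuron and oligodendrocyte covariate the shielded value was 0.53, all still past the threshold. Spi1 was lower in unshielded than in shielded mice after LPS (-0.72 ± 0.13, edgeR adjusted p = 0.000595, and -0.44 with that covariate). It stood at -0.34 ± 0.12 without LPS (edgeR adjusted p = 0.116). The value without LPS passed with library totals, with the covariate and without shielded LPS library 3. It also passed with only the groups compared, with or without the replicate block (edgeR adjusted p = 0.00683 to 0.0399 in all of these). The Maf to Spi1 ratio within libraries was 1.27 to 1.41 in shielded and 1.90 to 2.09 in unshielded libraries without LPS, and 0.224 to 0.312 and 0.677 to 0.904 after LPS. It therefore lay higher in unshielded mice at either condition, by 1.49-fold and 2.86-fold, and lower after LPS by 5.0-fold in shielded and 2.60-fold in unshielded mice, with no overlap in any of these.

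The 3 C/EBP genes split after LPS: Cebpb and Cebpd rose, and Cebpa did not. Cebpb went from 68.8, 74.6 and 78.7 CPM to 467, 498 and 362 CPM in shielded mice, and from 89.8, 66.4 and 77.0 CPM to 420.3, 594 and 423 CPM in unshielded mice. Shielded and unshielded libraries overlapped at either condition, and LPS libraries lay far above those without LPS. Cebpb rose 5.98-fold in shielded mice (log2 fold change 2.58 ± 0.17, edgeR adjusted p = 1.13e-07) and 6.16-fold in unshielded mice (2.62 ± 0.17, adjusted p = 3.56e-07). By shield the log2 differences were 0.07 ± 0.16 without LPS (edgeR adjusted p = 0.882; -0.25 to 0.40 within 2 SE) and 0.11 ± 0.16 after LPS (adjusted p = 0.567; -0.21 to 0.44), and both turned sign when single libraries were left out.

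Cebpd followed LPS and, after LPS, the shield. It went from 49.4, 53.0 and 50.2 CPM to 252, 270.04 and 202 CPM in shielded mice and from 42.1, 35.7 and 42.7 CPM to 148, 141 and 141 CPM in unshielded mice. Every unshielded library lay below every shielded library of the same condition. The rise was 4.74-fold in shielded mice (log2 fold change 2.25 ± 0.11, edgeR adjusted p = 2.13e-08) and 3.56-fold in unshielded mice (1.83 ± 0.11, adjusted p = 2.11e-07). By shield it stood at -0.34 ± 0.11 without LPS (edgeR adjusted p = 0.0689) and was 1.69-fold lower in unshielded mice after LPS (-0.75 ± 0.11, adjusted p = 0.000132). The value without LPS passed with the neuron and oligodendrocyte covariate and without shielded LPS library 3. It also passed with only the groups compared, with or without the replicate block (edgeR adjusted p = 0.0160 to 0.0403 in all of these).

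Cebpa stood at 505, 559 and 546 CPM in shielded libraries without LPS and at 306, 355 and 272 CPM after LPS. In unshielded libraries it stood at 462, 401 and 417 CPM without LPS and at 367, 386 and 287 CPM after LPS. LPS libraries lay below those without LPS in both kinds of mice, with a gap of 401 against 386 CPM at the nearest point in unshielded mice. Cebpa fell after LPS in shielded mice by 0.79 ± 0.13 on the log2 scale (edgeR adjusted p = 0.000174), and in unshielded mice the value was -0.30 ± 0.13 (adjusted p = 0.0749). The latter passed with library totals (-0.60, edgeR adjusted p = 0.000769), with the neuron and oligodendrocyte covariate (-0.38, adjusted p = 0.0246), with the replicate block in all 12 libraries (-0.31, adjusted p = 0.0436), and when shielded LPS library 3 (-0.33, adjusted p = 0.0341) or unshielded LPS library 2 (-0.36, adjusted p = 0.0470) was left out, and stood at -0.18 when unshielded LPS library 3 was left out. By shield Cebpa was at -0.33 ± 0.13 without LPS (edgeR adjusted p = 0.133) and 0.16 ± 0.13 after LPS (adjusted p = 0.322). The value without LPS passed with only the groups compared, without and with the replicate block (edgeR adjusted p = 0.0464 and 0.0330).

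Neutrophil markers were read beside the C/EBP genes. Of 10 such genes 2 rose after LPS in shielded mice (32.4% of all genes did) and 6 in unshielded mice (24.3%). The median log2 fold change of the 10 was -0.02 in shielded and 2.21 in unshielded mice. Their summed level was 179.5 to 406.5 CPM without and 320.3 to 542 CPM with LPS in shielded libraries, and 62.5 to 171 CPM without and 287.5 to 1064 CPM with LPS in unshielded libraries. The highest sum was that of unshielded LPS library 1. Its Cebpb was at 420.3 CPM, against 594 CPM in library 2 and 423 CPM in library 3, the lowest of the group. Its Cebpd was at 148 CPM, against 141 CPM in library 2 and 141 CPM in library 3, the highest of the group. Without unshielded LPS library 1 the log2 LPS effect in unshielded mice was 2.68 for Cebpb and 1.78 for Cebpd. With all libraries it was 2.62 for Cebpb and 1.83 for Cebpd. None of the 10 was at 0 in any library, and their part in the C/EBP values was not tested.

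Within a library, Cebpb had 0.136, 0.134 and 0.144 reads for each Cebpa read in shielded and 0.194, 0.166 and 0.185 in unshielded mice without LPS. After LPS it had 1.52, 1.40 and 1.33 in shielded and 1.15, 1.54 and 1.47 in unshielded mice, so these ratios were 10.3-fold and 7.59-fold higher, above 1 in every LPS library. By shield this ratio was 1.31-fold higher in unshielded mice without LPS, with no overlap, and the groups overlapped after LPS. The Cebpd to Cebpa ratio was 0.0920 to 0.0977 in shielded and 0.0890 to 0.102 in unshielded libraries without LPS, which overlapped, and 0.743 to 0.822 against 0.364 to 0.490 after LPS, which did not. The Cebpb to Cebpd ratio lay higher in unshielded libraries at either condition: 1.80 to 2.14 against 1.39 to 1.57 without LPS, and 2.84 to 4.23 against 1.79 to 1.86 after LPS. By the annotation, exons of Cebpb overlap those of Tmem189 and exons of Cebpd those of Spidr on the opposite strand, with 25923 and 12603 counts of their own over all libraries. Likewise Mef2a overlaps Lysmd4 (3300 counts), Cebpa overlaps Gm45091 (341 counts) and Maf overlaps Gm15655, which is not among the genes counted. The strand setting of the counting is not given in the sources used here, so reads of these pairs cannot be told apart.

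**Figure D2:**
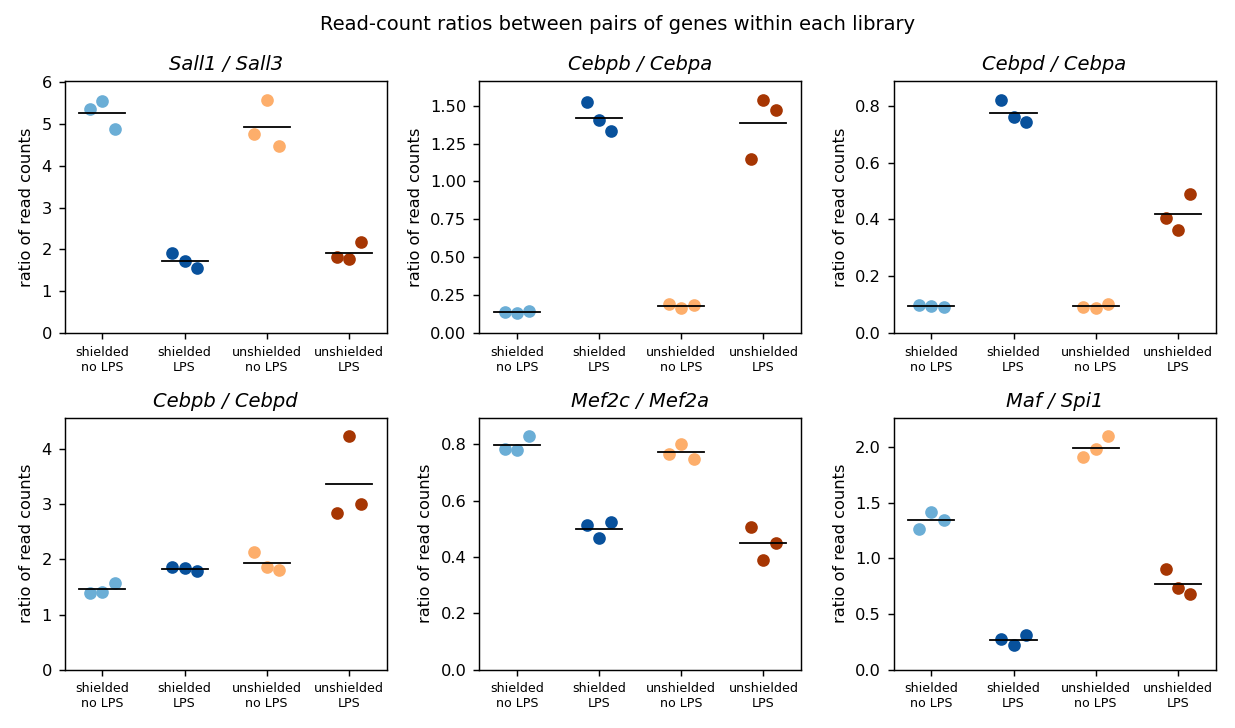
Ratio of read counts of 2 genes within each library (vertical axis, from 0) in the 4 groups (horizontal axis) for the 6 pairs; points are libraries and the line is the mean of 3. The Sall1 to Sall3 ratio is 4.46 to 5.58 in all libraries without LPS and 1.57 to 2.17 in all LPS libraries. The Maf to Spi1 and Cebpb to Cebpd ratios also separate unshielded from shielded libraries at either condition. The Cebpb to Cebpa ratio does so without LPS only, and the Cebpd to Cebpa ratio after LPS only.

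Set beside all genes, the 9 counts read as follows. After LPS in shielded mice 3 of 9 rose and 4 fell, where 67.5% of all 18875 genes tested passed (32.4% higher, 35.1% lower), so 7 of 9 is near that background. In unshielded mice 3 rose and 4 fell, against 43.1% of all genes (24.3% higher, 18.8% lower). Without LPS 2 of 9, Sall1 and Sall3, were lower in unshielded mice and none higher, against 10.8% (3.98% higher, 6.85% lower). Fitted on these 2 groups alone, Spi1, Cebpa and Cebpd also passed (edgeR adjusted p = 0.0342, 0.0464 and 0.0319). After LPS 5 were lower (Sall1, Sall3, Mef2c, Spi1 and Cebpd) and 1, Maf, was higher, against 44.6% (19.1% higher, 25.6% lower). Groups left no overlap after LPS in shielded mice for 3 genes that were higher and 4 that were lower (34.1% and 35.7% of all genes, 69.8% together), and in unshielded mice for 3 and 5 (29.6% and 31.7%, 61.4% together). By shield, no overlap was left without LPS for 1 higher and 5 lower (14.2% and 19.4%, 33.6% together), and after LPS for 1 higher and 6 lower (21.8% and 27.6%, 49.5% together). The median log2 fold change of the 9 was -0.22, -0.30, -0.33 and -0.40 in these 4 comparisons, against -0.14, -0.06, -0.003 and 0.07 for all genes. With library totals the medians of all genes after LPS moved to -0.49 in shielded and -0.36 in unshielded mice, and the split of all calls from 6119 higher and 6619 lower to 4047 and 9127, and from 4585 and 3543 to 2660 and 6519.

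**Figure D3:**
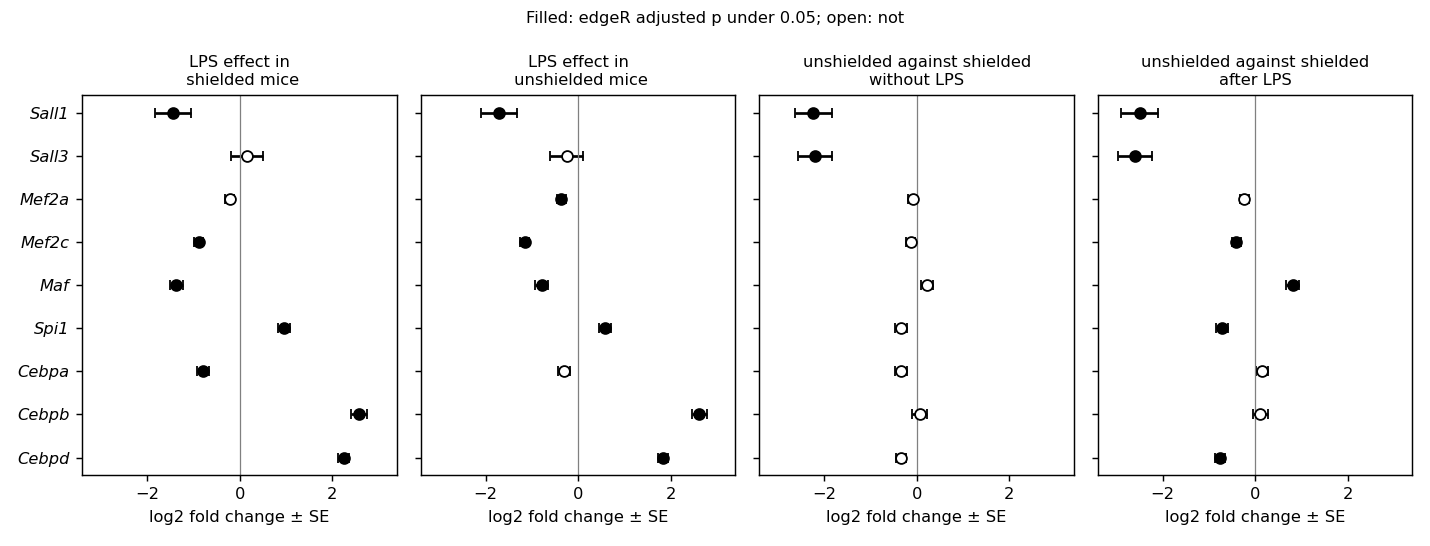
Log2 fold change with its SE (horizontal axis) of the 9 genes (vertical axis) in the 4 comparisons of groups, with filled points for an edgeR adjusted p under 0.05. Cebpb is at 2.58 and 2.62 after LPS and near 0 by shield, while Sall1 is at -2.23 and -2.50 and Sall3 at -2.19 and -2.60 by shield.

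Whether LPS acted differently on these genes in unshielded than in shielded mice was tested as the difference of the 2 effects. None of the 9 passed (edgeR adjusted p of 0.0651 and above), against 13.3% of all genes (4.06% higher, 9.25% lower), while 3 had an unadjusted p under 0.05 and DESeq2 called 1, Maf. Maf had the smallest adjusted p of the 9, with a difference of 0.58 ± 0.19 (edgeR adjusted p = 0.0651; DESeq2 adjusted p = 0.0449). This value also passed with library totals, without the filter on low counts, with the neuron and oligodendrocyte covariate, with the replicate block in all 12 libraries, and without shielded LPS library 1 or unshielded LPS library 3 (edgeR adjusted p = 0.0155 to 0.0484). Cebpa was at 0.49 ± 0.18 (edgeR adjusted p = 0.0944) and Cebpd at -0.41 ± 0.15 (adjusted p = 0.0939). Cebpa passed with library totals, with the covariate and without unshielded LPS library 3 (edgeR adjusted p = 0.0299 to 0.0440). Without shielded LPS library 3 Cebpd (-0.58, edgeR adjusted p = 0.00456) and Spi1 (-0.56, adjusted p = 0.0132) passed. Sall1 was at -0.26 ± 0.54, Sall3 at -0.40 ± 0.49, Mef2a at -0.15 ± 0.14, Mef2c at -0.27 ± 0.14, Spi1 at -0.38 ± 0.18 and Cebpb at 0.04 ± 0.23, with edgeR adjusted p from 0.179 to 0.913. For Sall1 the difference lies between -1.34 and 0.81 within 2 SE.

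Neuronal and oligodendrocyte markers moved with LPS in shielded mice, beside the calls given above. There, 8 of 8 genes of oligodendrocytes and 8 of 9 of neurons fell (35.1% of all genes did), and their summed levels went from 1825 to 2897 down to 436 to 1357 CPM and from 238.5 to 449 down to 47.9 to 217.5 CPM. In unshielded mice 1 of 8 and 0 of 9 fell (18.8% of all genes did), with sums of 1810 to 2335 and 337 to 438 CPM without LPS and 1076 to 1945 and 165 to 289 CPM after LPS. With the mean log2 level of these markers as a covariate the calls of Mef2c, Maf, Spi1, Cebpa, Cebpb and Cebpd in shielded mice stayed past the threshold, and that of Sall1 did not. The covariate left out endothelial and astrocyte markers. Of 9 endothelial genes 5 fell and 1 rose after LPS in shielded mice, and 6 fell and 1 rose in unshielded mice. Of 9 astrocyte genes 4 fell and 2 rose in shielded mice, and 1 fell and 1 rose in unshielded mice. By shield after LPS 6 astrocyte genes were higher and 1 lower (19.1% and 25.6% of all genes).

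The genes whose pattern over the 12 libraries lay nearest to Sall1 and to Cebpb were found among 10588 genes by the root mean square (RMS) difference of log2 CPM centred on each gene's mean. Nearest to Sall1, whose own RMS about its mean was 1.51, were P3h2, a prolyl hydroxylase (0.324), Adgrg1, an adhesion receptor of microglia (0.380), Slc2a5, a fructose transporter (0.393), Itgb3, an integrin chain (0.395), and Ebf3, a transcription factor (0.401). Adgrg1 had means of 745 and 362 CPM in shielded mice without and with LPS and 163 and 90.1 CPM in unshielded mice. Nearest to Cebpb, with an own RMS of 1.31, were Plaur, the urokinase receptor (0.146), Sbno2 (0.187), Cdkn1a, a cell cycle inhibitor (0.190), the inhibitory Fc receptor Fcgr2b (0.196) and Mocs1 (0.198). Plaur had means of 22.5 and 135 CPM in shielded and 25.7 and 151 CPM in unshielded mice. These genes were picked for their likeness, so their values are a description.

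**Figure D4:**
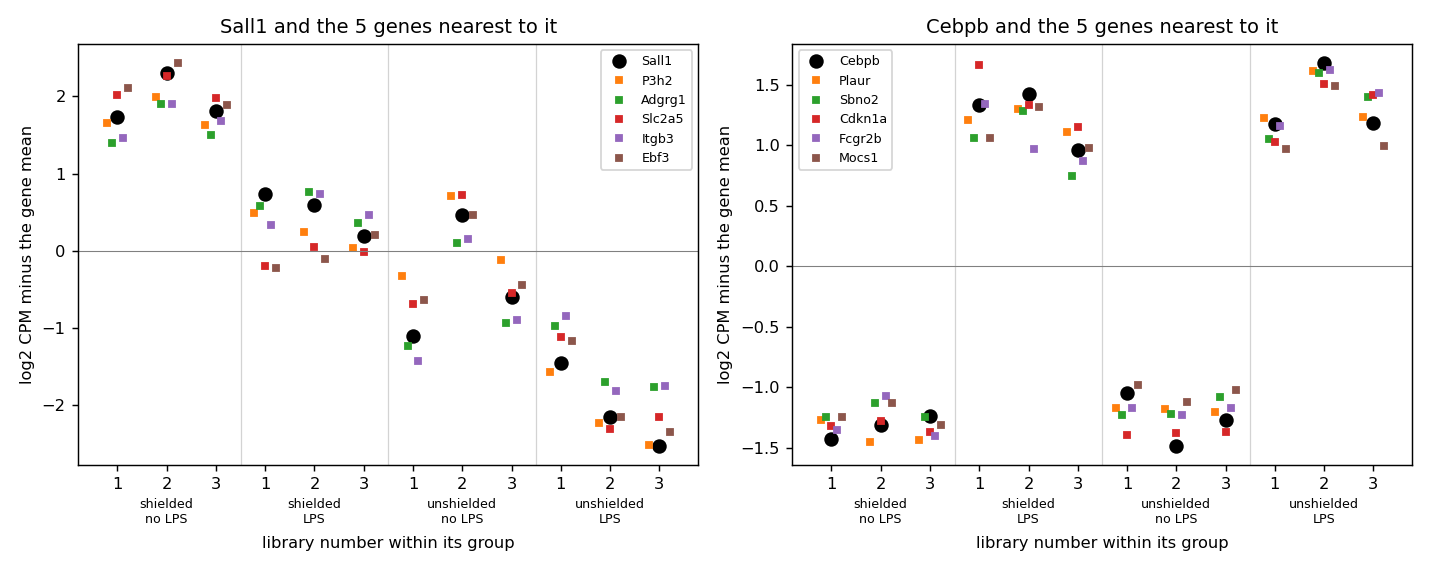
Log2 CPM minus the mean of the gene over 12 libraries (vertical axis) for Sall1 (left, black) and Cebpb (right, black) with the 5 nearest genes each (squares, coloured), by library number within the 4 groups (horizontal axis). Sall1 is highest in shielded library 2 without LPS and lowest in unshielded LPS library 3, and the Cebpb set falls into LPS and no-LPS levels with RMS differences of 0.146 to 0.198.

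Of 40 other factor genes, listed for the same families, for a shared symbol alone (Cebpz) or for myeloid lineages, 39 were tested (Mef2b was not). After LPS 17 rose and 10 fell in shielded mice (median 0.20 against -0.14 for all genes), which is near the 67.5% of all genes that passed, and 9 rose and 11 fell in unshielded mice (median 0.14 against -0.06), where 43.1% of all genes passed. Id2, an inhibitor of basic helix-loop-helix factors, rose from 43.0 ± 5.35 to 250.1 ± 31.3 CPM in shielded mice (SD, n = 3 each; log2 fold change 2.54 ± 0.18) and by 1.78 ± 0.17 in unshielded mice. Runx1, a myeloid factor, rose by 2.16 ± 0.19 and 1.82 ± 0.18, and Mafk, a small Maf protein, by 1.33 ± 0.12 and 1.48 ± 0.12. Sall2, another spalt gene, fell from 24.04 ± 1.19 to 8.86 ± 0.75 CPM in shielded mice (-1.44 ± 0.10) and by 0.80 ± 0.10 in unshielded mice. Fli1, an ETS factor, fell by 0.90 ± 0.09 and 0.86 ± 0.09, and Irf8, a PU.1 partner, fell by 1.09 ± 0.15 in unshielded mice. EdgeR adjusted p-values of these calls were at most 0.000104.

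By shield without LPS 3 of the 39 were higher and 4 lower (median -0.10), where 10.8% of all genes passed. Spic, a PU.1 relative of iron-recycling macrophages, stood at 6.66 ± 1.37 against 1.54 ± 0.65 CPM (log2 fold change 2.11 ± 0.39) and Tfec, a MiT family factor, at 2.66 ± 0.38 against 0.985 ± 0.101 CPM (1.43 ± 0.25), both higher in unshielded mice. Smad3, which carries TGF-β signals, was lower (84.3 ± 7.08 against 133 ± 15.3 CPM; -0.66 ± 0.13), as were Tal1 (-0.89 ± 0.19) and Hhex (-0.71 ± 0.16). EdgeR adjusted p-values here were at most 0.0125. After LPS 8 were higher and 12 lower (median -0.12), where 44.6% of all genes passed, with Bhlhe40 at 1.01 ± 0.14, Lyl1 at 0.89 ± 0.14 and Rxra at 0.65 ± 0.09, and with Tal1 at -1.69 ± 0.19, Cebpz at -1.13 ± 0.10 and Smad3 at -1.06 ± 0.13 (edgeR adjusted p at most 0.000271). Exons of Lyl1, Mafk, Runx1, Bhlhe40 and Cebpz, like those of P3h2, Fcgr2b, Ebf3 and Cdkn1a, overlap another gene on the opposite strand. The other gene had 33703 counts over all libraries for Lyl1, 6267 for Cebpz and 754 for P3h2. It had 57 to 173 counts for Mafk, Runx1, Bhlhe40 and Fcgr2b, and for Ebf3 and Cdkn1a it was not among the genes counted. The counts are therefore uncertain to differing degrees.

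**Figure D5:**
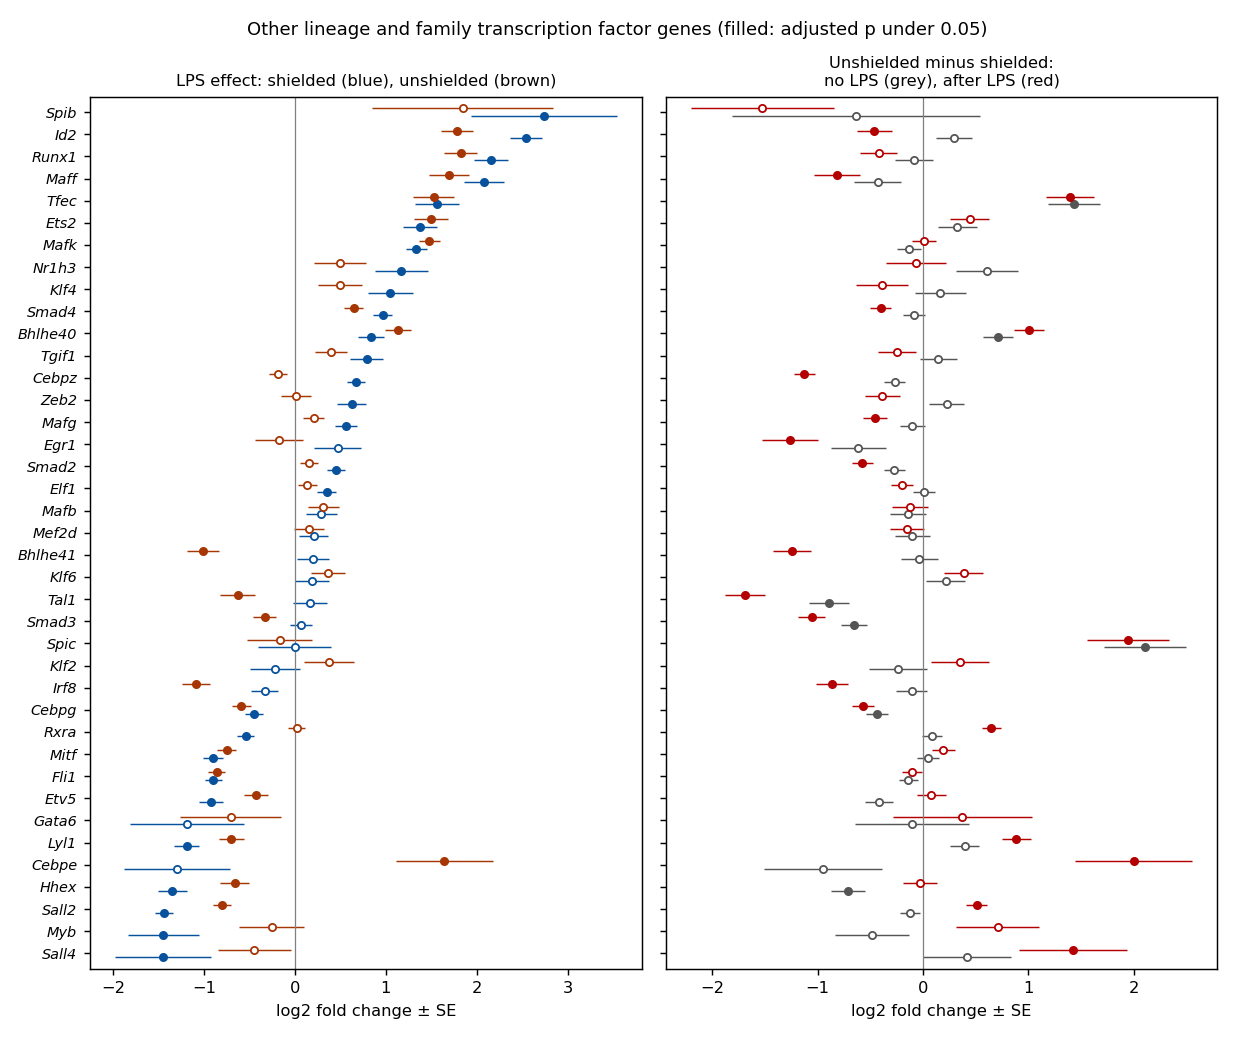
Log2 fold change with its SE (horizontal axis) of the 39 other factor genes (vertical axis, ordered by the LPS effect in shielded mice) for the LPS effects (left) and the differences by shield (right), with filled points for an edgeR adjusted p under 0.05. Id2 is at 2.54 and 1.78 and Sall2 at -1.44 and -0.80 after LPS, and Spic, at 2.11 without LPS, is the highest value by shield without LPS.

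Genes described as targets of C/EBP factors and of PU.1 were read as groups beside their factors. Of 19 C/EBP target genes 14 rose and 2 fell after LPS in shielded mice (median 2.61; 32.4% of all genes rose) and 15 rose and none fell in unshielded mice (median 2.15; 24.3% of all genes rose), while by shield 1 was higher and 2 lower without LPS (10.8% of all genes passed) and 2 higher and 4 lower after LPS (44.6%). Arginase Arg1 rose by 3.39 ± 0.21 and 3.11 ± 0.22 (edgeR adjusted p at most 5.14e-07). Many of these genes also respond to LPS through other factors. The list holds Cd14, which was used above to check the labels. Of 16 PU.1 target genes 8 rose and 3 fell in shielded mice after LPS (median 0.51), near the 67.5% of all genes that passed, and 8 rose and 1 fell in unshielded mice (median 0.38), against 43.1%. By shield they went both ways. Without LPS 3 were higher and 6 lower (3.98% and 6.85% of all genes), and after LPS 3 higher and 7 lower (19.1% and 25.6%). The lysozyme gene Lyz2 was higher in unshielded mice (2.03 ± 0.27 and 3.42 ± 0.29). Itgam, which encodes CD11b, was lower (-0.94 ± 0.15 and -1.06 ± 0.15), with edgeR adjusted p at most 0.00132 for both genes. Lyz2 and Itgam are also the genes of a macrophage product and of the antigen used for the sort. Exons of Itgam overlap those of Gm49368 on the same strand (89 counts over all libraries).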

How the data were processed

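RNA went through linear amplification before libraries were made, per the labels' protocols. Per the submitters' processing notes the authors used FastQC, STAR and HTSeq with build mm9, and deposited whole-number read counts per gene. No tool version, annotation release or strand setting is given in the sources used here. Each of the 12 libraries had its own column, matched by title. Of 36491 identifiers 254 had no symbol.

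Genes were filtered with filterByExpr (minimum count 10, minimum total 15), scaled by TMM, and fitted in 1 model of all 12 libraries with edgeR 4.0.16 (quasi-likelihood, robust, two-sided, R 4.3.3). Benjamini-Hochberg adjustment ran over 18875 genes with a threshold of 0.05; SE is the log2 fold change divided by the root of F. DESeq2 1.42.0 and the other alternatives are given in the closing section. Log2 CPM used a prior count of 2. The code was tested on simulated data.

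The 9 genes and all lists were chosen with earlier results of these data known. All 9 were named, and of every other list up to 3 called genes per direction with the smallest p. The likeness search used tested genes whose log2 CPM averaged 2 or more. Libraries of a group differed by more than sampling noise (chi-square per degree of freedom at least 11.2). Deviations of same-numbered libraries of the shielded groups correlated over genes with r = 0.112, 0.194 and 0.547. Shielded LPS library 1 with shielded no-LPS library 2 had r = 0.399. A pairing by number was therefore not shown by these data, and the labels state none. Exon overlaps were found from exon coordinates of the GRCm38 annotation, whereas the counts were made on mm9.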

Additional observations from a re-analysis of the deposited data

How the results depend on the processing

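The replicate block in the compared groups alone and the checks of the ratios were chosen after seeing the data. Of 972 values of single genes under alternatives, 891 kept their direction and side of the threshold, 27 lost a call, 36 gained one and 18 turned sign. Where values changed, the cause was not tested.

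Of the 9 genes, 7 passed for LPS in shielded mice and 7 in unshielded mice, 2 by shield without LPS, 6 after LPS and 0 for the difference. With the conflicting libraries grouped by treatment field these became 0, 0, 0, 2 and 0. Leaving out single libraries gave 7 to 8, 6 to 8, 2 to 4, 6 to 7 and 0 to 2. By shield without LPS the number was 4 with the neuron and oligodendrocyte covariate, 5 with only the groups compared, 5 with the replicate block in those groups alone and 0 without the conflicting libraries. For the difference it was 1 with DESeq2, 2 with library totals, 2 with the covariate, 1 without the filter and 1 with the replicate block in all 12 libraries.

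Over all genes the calls were 12738, 8128, 2043, 8423 and 2512 in the same order. By treatment field they were 0, 117, 0, 1464 and 0. Leaving out single libraries gave 10725 to 13697, 6219 to 9442, 1094 to 2353, 6362 to 11101 and 1615 to 6391. The 1094 came without unshielded no-LPS library 3, the 1615 without shielded no-LPS library 3 and the 6391 without shielded LPS library 3. Calls for LPS in shielded mice were 6736 with the covariate and 8369 without the conflicting libraries. By shield without LPS they were 3457, 3405 with the block in the compared groups and 292 without the conflicting libraries. The difference gave 1571 without the filter and 148 without the conflicting libraries.

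Sign turned for Sall3 after LPS in shielded mice with library totals (-0.20) and the covariate (-0.025), and in unshielded mice within a range of -0.68 to 0.13 when single libraries were left out. Cebpb ranged from -0.042 to 0.17 by shield without LPS and from -0.068 to 0.19 after LPS. Cebpa by shield after LPS was -0.28 by treatment field. For the difference, Sall1 ranged from -0.66 to 0.26 and Cebpb from -0.14 to 0.12 over left-out libraries, Cebpb was -0.069 without the conflicting libraries, and by treatment field Maf was -0.28, Cebpa -0.032 and Cebpd 0.036.

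The replicate block in the shielded groups alone changed no call of the 9 genes for LPS. In the other comparisons, too, the numbers were not shown to pair the libraries (r from -0.264 to 0.478 for same numbers). There the block in the compared groups alone left Sall1 at -1.63 after LPS in unshielded mice (edgeR adjusted p = 0.0988). Each of the 9 genes had 607 or more counts in every library.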

Other observations

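Among 39 other tested factor genes, 6 passed for the difference of LPS effects between unshielded and shielded mice, 3 in each direction. That is near the 13.3% of all genes that passed. They are named because they passed, after their values were seen. Irf8, the gene of an interferon regulatory factor that works with PU.1, was at 614, 648 and 579 CPM in shielded libraries without LPS and at 608, 454 and 397 CPM after LPS. In unshielded libraries Irf8 was at 604, 563 and 539 CPM and after LPS at 306, 273 and 224 CPM, below every other library. The difference of its LPS effects was -0.75 ± 0.21 (edgeR adjusted p = 0.0357).

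Bhlhe41, a basic helix-loop-helix repressor, was at 183, 198 and 161 CPM in shielded and 191, 169 and 169 CPM in unshielded libraries without LPS. After LPS it was at 257.8, 194 and 170.4 CPM in shielded and at 104, 93.2 and 65.5 CPM in unshielded libraries, a difference of -1.21 ± 0.25 (edgeR adjusted p = 0.00889). Cebpz, listed for its symbol alone, differed by -0.86 ± 0.14. It went from 114, 116 and 101 CPM to 196, 177 and 153 CPM in shielded libraries, and from 93.4, 93.6 and 87.9 CPM to 84.5, 81.8 and 74.5 CPM in unshielded libraries. Its exons overlap those of Cebpzos. Sall2 fell less in unshielded mice (0.64 ± 0.14) and Rxra differed by 0.56 ± 0.13. Cebpe, at 0.23 to 2.48 CPM, differed by 2.95 ± 0.79 at these low levels.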
